A study of Mus musculus with 18 samples.

Results

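The subject is the transcripts of amino acid and peptide transporters in mouse CD4 T cells with and without Id3. Members were all genes of the deposited expression table named Slc1a, Slc3a, Slc6a, Slc7a, Slc15a, Slc36a, Slc38a or Slc43a with a number, leaving out pseudogenes and opposite-strand genes. The rule used names and no measured value, and it found 34 of 12547 genes. Of 35 names with the pattern, Slc7a6os was the only one left out. RNA-seq had been made of Id3-KO and WT Th1 cells, with 3 libraries in each of 6 groups: KO set 3, KO set 5, KO set 6, WT set 3, WT set 5 and WT set 6. All groups were naive CD4 T cells activated through CD3 and CD28 on beads and cultured with IL2, IL12 and anti-IL4 antibody, conditions that favour Th1 cells, the helper cells that make interferon gamma. The groups differ in genotype and in the set number, whose meaning the labels leave unstated. In the names of the authors' contrasts, 24 goes with set 3 and 96 with sets 5 and 6, without a unit. The sources used here do not give how Id3 was deleted or the age, sex and number of mice, so a p-value below measures the spread between libraries, which may be technical.

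Amino acids and small peptides cross membranes through such carriers. The heavy chain encoded by Slc3a2 (CD98) brings light chains of the Slc7 family to the plasma membrane, and the pair of Slc3a2 and Slc7a5 exchanges glutamine for leucine and other large neutral amino acids. T cell activation is known to raise the uptake of leucine, glutamine and arginine, which feed protein synthesis and the kinase complex mTORC1. Other carriers sit in the lysosome, where Slc38a9 reports arginine to mTORC1, Slc38a7 exports glutamine and Slc15a3 and Slc15a4 export peptides and histidine. Id3 is an inhibitor that keeps E proteins, transcription factors that read E-box sequences, away from DNA.

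Promoter sequence was at hand for 24 of the 34 members, in RefSeq windows of 300 bases on GRCm38.p6, 250 before and 50 after the start of the transcript. The authors' processing notes name GRCm39, so these positions belong to another build than the expression values. Windows were searched on both strands for TGATGCAA, a composite element bound by the stress factor ATF4, for the E-box CACGTG bound by Myc, and for CAGGTG and CAGCTG, E-boxes bound by E proteins. A gene was counted where any of its windows held the match. TGATGCAA was in 3 of the 24 members (12.5%) and in 1.03% of all 27025 genes, CACGTG in 3 (12.5%) and 8.09%, CAGGTG in 4 (16.7%) and 22.6%, and CAGCTG in 5 (20.8%) and 18.3%. Of all 32851 windows, 0.895%, 7.15%, 20.2% and 16.3% held these matches. A match says only that the letters occur there. Matches in Slc1a4, Slc6a13, Slc7a1, Slc7a6, Slc7a7, Slc38a6 and Slc43a1 are not printed. Of these, Slc6a13, Slc7a1 and Slc38a6 were called in no KO against WT comparison on the deposited scale. Shown here are matches in members described below: Slc7a11 for its pair of inverted ATF4 elements, Slc36a1, Slc38a7, Slc38a2 and Slc38a9, which were all higher in KO cells of sets 5 and 6, and Slc15a1, which was lower there. Each runs 5′ to 3′ along the gene's strand with the match in capitals. The capitals of Slc38a9 are CAGGTG read from the other strand, and those of Slc7a11 hold TGATGCAA and its reverse.
Slc7a11, chr3:50443633-50443699, minus strand: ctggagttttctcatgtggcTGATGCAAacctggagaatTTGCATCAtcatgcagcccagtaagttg
Slc36a1, chr11:55204237-55204282, plus strand: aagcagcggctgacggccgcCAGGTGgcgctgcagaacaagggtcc
Slc36a1, chr11:55204289-55204334, plus strand: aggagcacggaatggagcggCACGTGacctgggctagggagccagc
Slc38a7, chr8:95853500-95853545, minus strand: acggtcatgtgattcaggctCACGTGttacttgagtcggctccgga
Slc38a2, chr15:96699775-96699820, minus strand: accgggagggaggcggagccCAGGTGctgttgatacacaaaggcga
Slc38a9, chr13:112660564-112660609, plus strand: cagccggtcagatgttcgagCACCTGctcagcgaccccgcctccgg
Slc15a1, chr14:121505281-121505326, minus strand: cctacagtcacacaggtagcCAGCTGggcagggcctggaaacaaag
In these windows the first bases of the matches lay 66 and 47 bases before the start in Slc7a11, 83 and 31 in Slc36a1 (a further CACGTG, 3 bases before its start, is not shown), 34 in Slc38a7, 72 in Slc38a2, 182 in Slc38a9 and 52 in Slc15a1.

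Values are log2 expression values as deposited. Sorted by size, 97 to 98.4% of the values were the same (within 1e-06) in all libraries of a group, so the authors had equalized libraries within groups, the depth of a library is unknown, and the spread within groups is compressed. Library medians were 9.18, 9.57 and 9.66 in KO sets 3, 5 and 6 and 9.21, 9.18 and 9.25 in WT sets, and the median KO against WT difference over all genes was -0.07, 0.39 and 0.42. A difference is therefore also given after centring each library on its median, and whether KO cells of sets 5 and 6 hold more RNA or their values were scaled differently was not tested. Id3 averaged 3.05, 3.48 and 3.48 in KO and 9.81, 9.10 and 9.18 in WT cells of sets 3, 5 and 6. All 8 T cell markers were measured and none was at a library's lowest value. In KO cells of set 3, however, 5 of 6 granulocyte and mast cell markers and 6 of 8 B cell markers were higher than in WT cells. So were 3 of 5 erythroid and 2 of 3 dendritic cell markers, where 6.92% of all genes were higher. Of 8 T cell markers 4 were lower there, against 4.46% of all genes. The summed level of the B cell markers was 11.02, 8.07 and 8.32 in KO replicates 1 to 3 of set 3 and 6.32 to 7.53 in WT libraries. That of the erythroid markers was 13.79, 12.35 and 11.60 against 8.28 to 9.26, so KO replicate 1 was highest for both. The part of these markers in the results on set 3 was not tested. In bulk samples fewer cells of a type and less RNA per cell cannot be told apart.

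**Figure D1:**
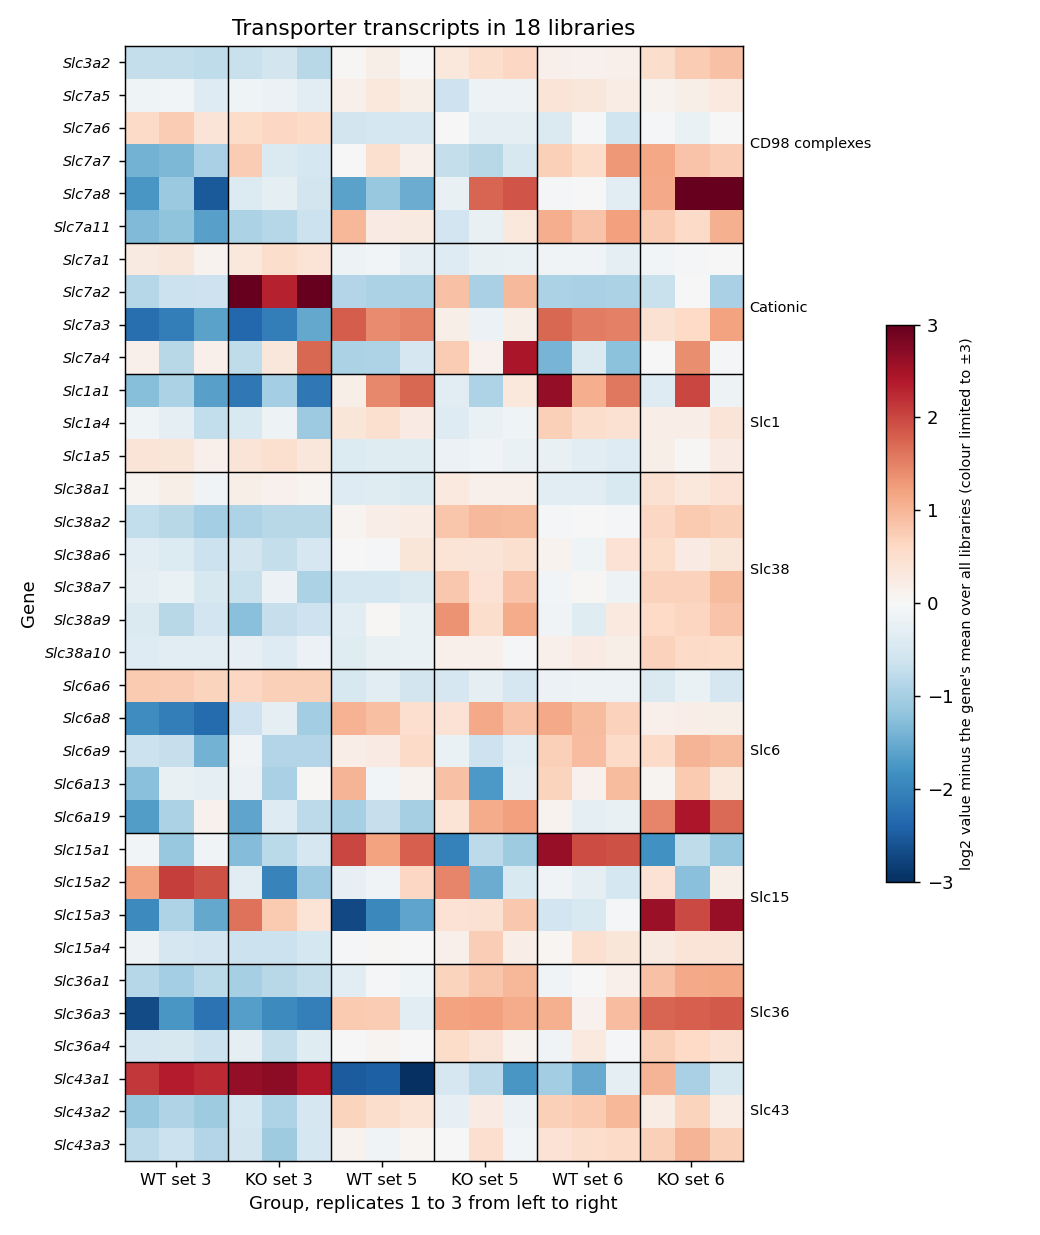
Colour gives the log2 value of each of the 34 transporters (rows, grouped by family) in each of 18 libraries (columns) minus that gene's mean over all libraries. Slc43a1 and Slc6a6 stand high in set 3 of both genotypes and Slc7a3 and Slc36a3 in sets 5 and 6; Slc15a3 is high in KO libraries of all sets, and Slc15a1 is high only in WT libraries of sets 5 and 6.

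Few transporters parted KO from WT cells in set 3 and many did in sets 5 and 6, as was also so among all genes. By limma's moderated test with Benjamini-Hochberg adjustment over all genes (threshold 0.05), 4 members were higher and 1 lower in KO cells of set 3, where 6.92% of all genes were called higher and 4.46% lower. In set 5, 15 were higher and 7 lower, against 50.1% and 8.08% of all genes, and in set 6, 13 were higher and 5 lower, against 53.9% and 4.59%. The share of members called higher was thus 44.1% and 38.2%, under the background, and the share called lower was 20.6% and 14.7%. The median difference of the members was 0.07, 0.32 and 0.29 in sets 3, 5 and 6. After centring, 9 members were higher and 12 lower in set 5 (all genes 24.9% and 24.7%), and 6 higher and 9 lower in set 6 (18.8% and 18.5%), with a median of -0.07 and -0.12. In set 3 the counts were 4 and 1 on this scale too (7.29% and 3.28%). KO and WT values did not overlap for 8, 25 and 22 members in the 3 sets, against 29.9%, 64% and 65.1% of all genes. Slc15a3 was the only member called in all 3 sets, on both scales. On the deposited scale 28 members were called in at least 1 set, and Slc1a1, Slc6a13, Slc7a1, Slc7a11, Slc38a6 and Slc43a3 in none. After centring 24 were called in at least 1 set, Slc1a1, Slc7a1 and Slc7a11 among them. The share of all genes called in at least 1 set was not counted on either scale, so the counts of 28 and 24 have no background.

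The effect of the knockout also differed between sets. The mean KO minus WT difference of sets 5 and 6 exceeded that of set 3 for 10 members and was below it for 7, where 49.1% and 6.39% of all genes were called. After centring these were 6 and 12, against 19.6% and 18.5%. In the authors' deposited table, whose score was 0 for small folds, 3 members were higher and 1 lower in set 3, 10 and 3 in set 5, and 10 and 2 in set 6. The share of all genes called by the authors' test was not counted, so these counts have no background.

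**Figure D2:**
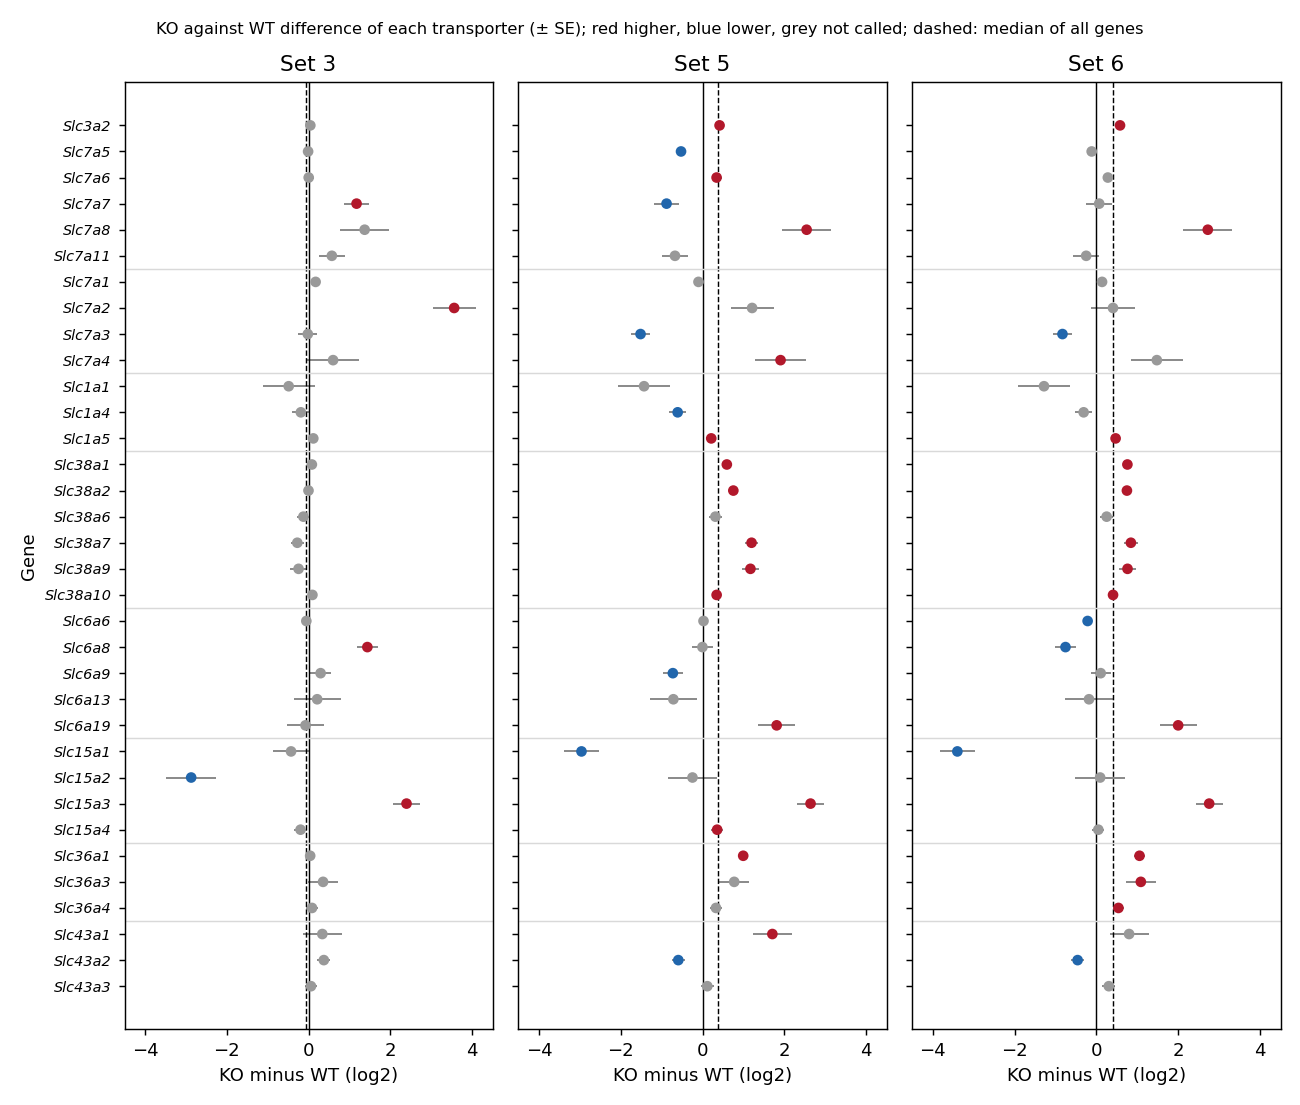
Points give the KO minus WT difference (log2, horizontal axis) of each transporter in sets 3, 5 and 6 with its SE; red is called higher, blue lower and grey not called, and the dashed line is the median of all genes. In set 3 the 4 genes called higher lie above 1, Slc15a2 lies at -2.87 and Slc7a8, not called, at 1.37, and in sets 5 and 6 the dashed line stands at 0.39 and 0.42, with Slc15a1 far to its left and Slc15a3 and Slc7a8 far to its right.

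On the deposited scale, the heavy chain and its best known partner differed in opposite ways in set 5. Slc3a2 stood at 12.63, 12.74 and 12.47 in KO and 12.59, 12.58 and 12.55 in WT libraries of set 3, and the groups overlapped. For set 5 the values were 13.62, 13.82 and 13.93 in KO and 13.35, 13.47 and 13.31 in WT libraries, and in set 6 they were 13.82, 14.07 and 14.18 against 13.46, 13.43 and 13.45. KO libraries lay above all WT libraries in both sets, and the means differed by 0.42 (SE 0.09, adjusted p = 0.000989) and 0.58 (SE 0.09, adjusted p = 6.05e-05). These differences were close to that of the median gene: after centring they were 0.03 (adjusted p = 0.824) and 0.16 (adjusted p = 0.175).

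Slc7a5, the light chain that carries leucine, was at 12.52, 12.49 and 12.35 in KO and 12.53, 12.59 and 12.28 in WT libraries of set 3. In set 5 the KO libraries, at 12.03, 12.50 and 12.50, lay below the WT libraries, at 12.81, 12.98 and 12.83. The difference was -0.53 (SE 0.11, adjusted p = 0.000772), and -0.91 after centring (adjusted p = 1e-05). In set 6 the values were 12.77, 12.82 and 12.96 against 13.04, 12.99 and 12.87 and overlapped, with a difference of -0.12 (SE 0.11, adjusted p = 0.390). After centring it was -0.53 and passed the test (adjusted p = 0.00169). Relative to the median gene Slc7a5 was thus lower in KO cells of both sets, and on the deposited scale in set 5.

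Slc7a8, another light chain for neutral amino acids, had low values in WT cells. In set 3 it was at 3.68, 3.82 and 3.54 in KO and 2.36, 2.98 and 1.60 in WT libraries, without overlap, but the difference of 1.37 (SE 0.60, adjusted p = 0.153) was not called. In set 5 KO libraries were at 3.87, 5.86 and 6.003 and WT libraries at 2.51, 2.97 and 2.61. In set 6 they were at 5.24, 7.25 and 7.63 against 4.05, 4.13 and 3.78. KO replicate 1 stood below the other KO replicates in both sets and still above every WT library of its set. Slc7a8 was higher by 2.55 (SE 0.60, adjusted p = 0.00163) in set 5 and 2.72 (SE 0.60, adjusted p = 0.001) in set 6, and by 2.16 and 2.31 after centring. The difference of its KO effect from that in set 3 was not called (1.26, adjusted p = 0.154).

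Slc7a7, a light chain that exchanges cationic for neutral amino acids, changed its direction between sets. KO libraries of set 3 were at 6.35, 5.14 and 5.06 and WT libraries at 4.17, 4.24 and 4.62. KO libraries of set 5 were at 4.88, 4.76 and 5.10 and WT libraries at 5.58, 6.06 and 5.74, and in set 6 the values of 6.75, 6.45 and 6.32 overlapped with 6.30, 6.13 and 6.89. The KO minus WT difference was 1.17 (SE 0.31, adjusted p = 0.024) in set 3, -0.88 (SE 0.31, adjusted p = 0.0243) in set 5 and 0.07 (SE 0.31, adjusted p = 0.871) in set 6. The call in set 3 was lost without KO replicate 1 (adjusted p = 0.131), the library with the highest value, without WT replicate 1 or 2 (0.086 and 0.065), when the groups of set 3 alone were fitted (0.157) and after quantile normalization (0.0918). That in set 5 was lost without KO replicate 1 or 2 (0.0549 and 0.0679) or WT replicate 2 (0.0903). An exon of Slc7a7 overlaps Oxa1l on the opposite strand in GENCODE M21, and Oxa1l was not called in set 3 (0.11, adjusted p = 0.622) and was higher in KO cells of set 5 (0.72, adjusted p = 0.000232). The library kit was directional, but the sources used here do not give whether counting used the strand.

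Of the remaining CD98 partners, Slc7a6 was called in set 5 and Slc7a11 in no set on the deposited scale. Slc7a6, another exchanger of cationic and neutral amino acids, had values of 10.24 to 10.56 in KO and 10.01 to 10.04 in WT libraries of set 5, a difference of 0.34 (SE 0.12, adjusted p = 0.0242). It was -0.04 after centring, and the call was lost without KO replicate 1 (adjusted p = 0.126) and without WT replicate 1 (0.0576) or 2 (0.0555). In set 6 the difference of Slc7a6 was 0.28 (adjusted p = 0.0621, and 0.0328 with a block for replicate number). Slc7a11, the cystine and glutamate exchanger, was not called in any set as deposited (0.57, -0.67 and -0.25), and after centring its difference of -1.06 in set 5 was (adjusted p = 0.0107). Its KO effect in sets 5 and 6 lay below that in set 3 by -1.03 (SE 0.39, adjusted p = 0.0322). This call was lost without KO set 3 replicate 3 (0.0737), KO set 6 replicate 2 (0.0503), WT set 3 replicate 3 (0.0795), WT set 5 replicate 1 (0.0549) or WT set 6 replicate 3 (0.0521).

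Among the cationic amino acid carriers, Slc7a1, the common arginine carrier of T cells, had values between 10.86 and 11.79 in all libraries and was called in no set, while its relatives differed widely. The difference of Slc7a1 was 0.17, -0.10 and 0.14 (adjusted p = 0.204, 0.340 and 0.179). A block for replicate number brought calls in sets 3 and 6 (adjusted p = 0.0442 and 0.0374), and after centring Slc7a1 was lower in sets 5 (-0.49, adjusted p = 0.000225) and 6 (-0.28, adjusted p = 0.0185).

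Slc7a2, an arginine carrier known from macrophages and liver, was found in KO libraries of set 3 at 5.18, 4.29 and 4.99. WT libraries of set 3 were at 1.11, 1.33 and 1.34, the first of them at that library's lowest value. In set 5 KO libraries were at 2.85, 1.003 and 2.95 and in set 6 at 1.29, 1.96 and 1.01, with replicate 2 of set 5 and replicate 3 of set 6 at the lowest value, as were all 6 WT libraries of sets 5 and 6. The groups did not overlap in set 3, and the test called the difference (adjusted p = 0.000458), whose fitted size rests on the lowest value. The summed level of 6 granulocyte and mast cell markers was 9.23 to 9.59 in KO and 5.80 to 6.78 in WT libraries of set 3, led there in KO cells by Cma1 and Tpsb2. It was 4.96 to 6.72 in KO and 7.56 to 8.01 in WT libraries of set 5, where Kit, lower in KO cells (-2.39, adjusted p = 0.000251), had a mean of 7.71 in WT cells, and Cma1 and Tpsb2 were near the lowest values. The part of such cells in the Slc7a2 values was not tested. Its KO effect was smaller in sets 5 and 6 than in set 3 (-2.75, SE 0.64, adjusted p = 0.00185).

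Slc7a3, another arginine and lysine carrier, was at 5.15, 5.43 and 5.96 in KO and 5.24, 5.44 and 5.91 in WT libraries of set 3. In set 5 it was at 7.67, 7.32 and 7.68 in KO and 9.31, 8.93 and 8.98 in WT libraries, and in set 6 at 7.96, 8.10 and 8.72 against 9.22, 9.03 and 9.02. Every library of sets 5 and 6 lay above every library of set 3, and within sets 5 and 6 every KO library lay below every WT library. Slc7a3 was lower in KO cells by -1.52 (SE 0.24, adjusted p = 4.29e-05) in set 5 and -0.83 (SE 0.24, adjusted p = 0.00647) in set 6, and by -1.90 and -1.24 after centring.

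Slc7a4, a relative of these carriers, was at 5.36, 4.74 and 7.06 in KO and 3.65, 3.69 and 4.10 in WT libraries of set 5. The difference of 1.91 (SE 0.63, adjusted p = 0.0164) rested on KO replicate 3, without which it was 1.24 (adjusted p = 0.107), and was 1.52 after centring (adjusted p = 0.0568). In set 3 its values were 3.84, 4.94 and 6.32 in KO and 4.77, 3.77 and 4.76 in WT libraries and overlapped, and in set 6 they were 4.62, 5.999 and 4.58 against 3.22, 4.17 and 3.38 (difference 1.48, adjusted p = 0.0555). Slc7a4 shares exon sequence with P2rx6 on the opposite strand.

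**Figure D3:**
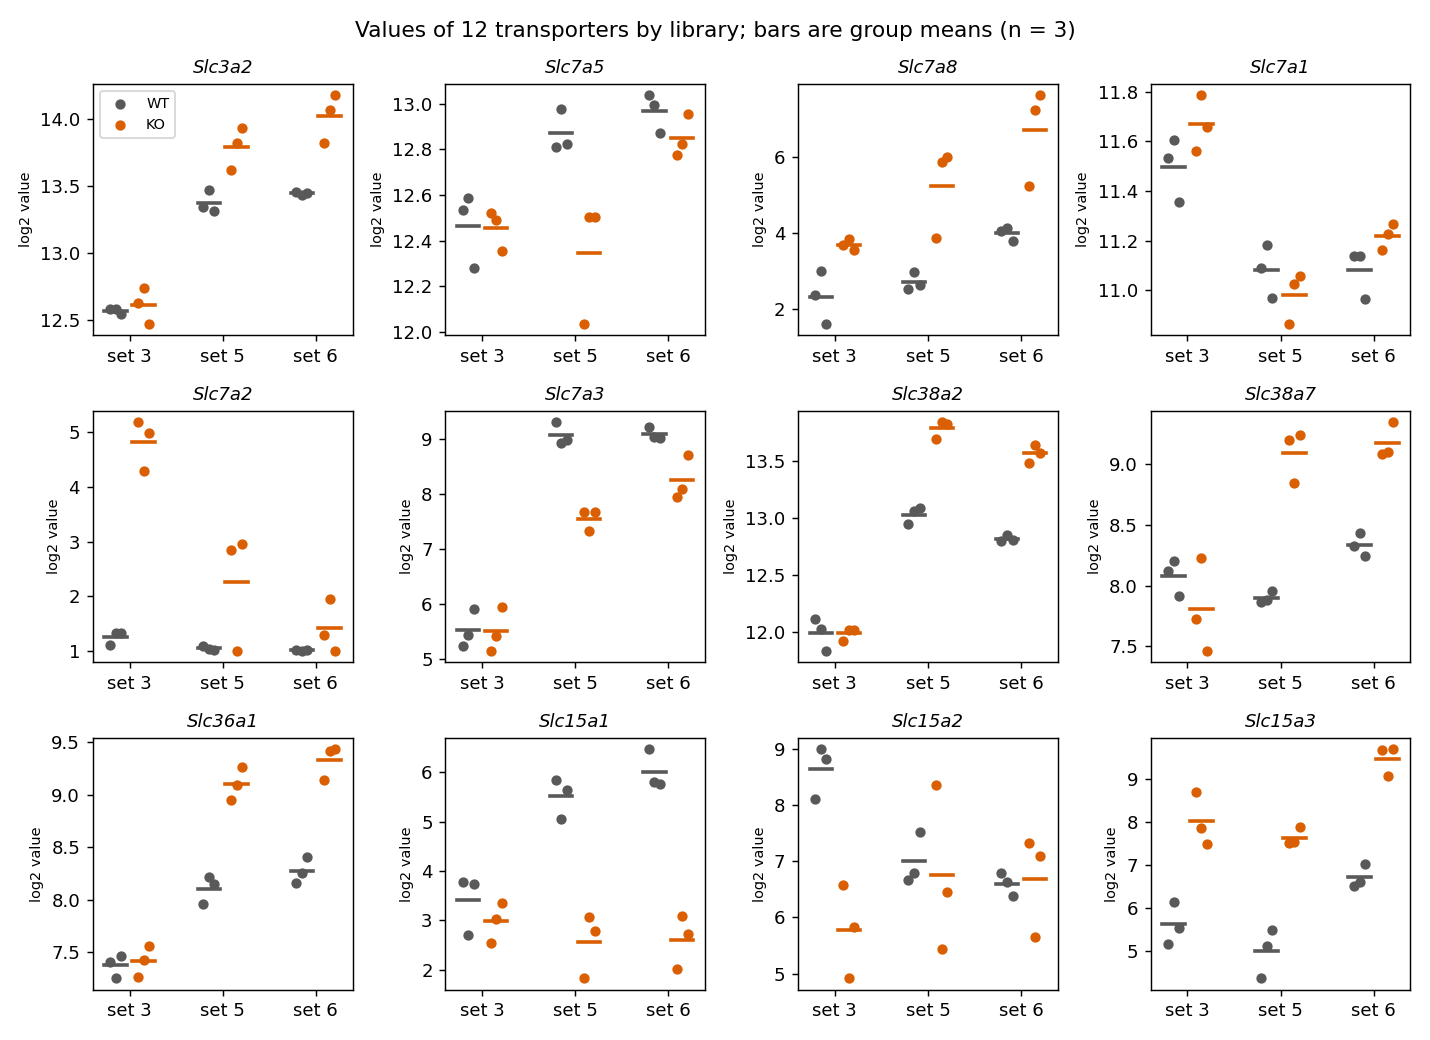
Log2 values of 12 transporters in each library of sets 3, 5 and 6; grey is WT, orange KO, and bars are means of 3 libraries (the vertical axes differ between panels). Slc7a2 parts the genotypes in set 3 alone, Slc38a2, Slc36a1 and Slc7a3 in sets 5 and 6, and Slc15a3 in all sets.

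Glutamine carriers of the Slc38 family were higher in KO cells of sets 5 and 6, and in set 5 the lysosomal members differed most. Of its 6 measured members 0 were called in set 3, and 5 were higher in set 5 and the same 5 in set 6, where 50.1% and 53.9% of all genes were called higher. After centring, Slc38a1, Slc38a2, Slc38a7 and Slc38a9 were still called in set 5 and Slc38a1 and Slc38a2 in set 6, against 24.9% and 18.8% of all genes. Slc38a2, which takes up glutamine and other small neutral amino acids, was at 11.93 to 12.02 in KO and 11.83 to 12.12 in WT libraries of set 3. It was at 13.69 to 13.84 in KO and 12.94 to 13.08 in WT libraries of set 5, and at 13.48 to 13.64 against 12.80 to 12.85 in set 6. The gaps between genotypes were wide beside the spread within them, with differences of 0.75 (SE 0.07, adjusted p = 2.77e-07) and 0.75 (SE 0.07, adjusted p = 4.75e-07), and 0.36 and 0.33 after centring. Slc38a1, a close relative with a like range of substrates, differed by 0.59 (SE 0.07, adjusted p = 3.71e-06) and 0.76 (SE 0.07, adjusted p = 4.95e-07), and by 0.21 and 0.34 after centring. Both remained called on that scale.

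Slc38a7, the lysosomal glutamine exporter, stood at 7.73, 8.22 and 7.46 in KO and 8.12, 8.20 and 7.91 in WT libraries of set 3. It was at 9.20, 8.84 and 9.25 in KO and 7.86, 7.88 and 7.95 in WT libraries of set 5, and at 9.09, 9.10 and 9.35 against 8.33, 8.44 and 8.24 in set 6. The differences of sets 5 and 6 were 1.199 (SE 0.17, adjusted p = 1.34e-05) and 0.84 (SE 0.17, adjusted p = 0.000412). After centring only the former was called (0.81, adjusted p = 0.000825, against 0.43, adjusted p = 0.0522).

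Slc38a9, the lysosomal arginine sensor, was at 7.38, 7.94 and 8.02 in KO and 8.20, 7.81 and 8.07 in WT libraries of set 3. Its values were 9.99, 9.18 and 9.76 in KO and 8.30, 8.68 and 8.44 in WT libraries of set 5, and 9.23, 9.29 and 9.49 against 8.52, 8.28 and 8.93 in set 6. Again KO and WT libraries did not overlap in sets 5 and 6. Their means differed by 1.17 (SE 0.22, adjusted p = 0.000218) and 0.76 (SE 0.22, adjusted p = 0.00668). The latter difference was not called after centring (0.35, adjusted p = 0.224). The KO effect on Slc38a2, Slc38a7 and Slc38a9 was larger in sets 5 and 6 than in set 3, by 0.75, 1.30 and 1.21 (adjusted p = 3.71e-06, 6.05e-05 and 0.00109), also after centring. Slc38a10 was called higher in both sets (0.35 and 0.41), but relative to the median gene it differed by -0.04 and -0.01. Slc38a6 was the only member of this family without a call (0.32 and 0.25 in sets 5 and 6).

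The Slc36 carriers move small amino acids together with protons, and Slc36a1 works on lysosomes. In set 3 Slc36a1 was at 7.27, 7.42 and 7.56 in KO and 7.41, 7.25 and 7.47 in WT libraries. Set 5 had values of 8.95, 9.09 and 9.26 against 7.96, 8.21 and 8.15, and set 6 had 9.14, 9.41 and 9.43 against 8.16, 8.25 and 8.41. KO libraries thus lay well above WT libraries in both of these sets. The means differed by 0.995 (SE 0.13, adjusted p = 6.64e-06) and 1.05 (SE 0.13, adjusted p = 4.68e-06), and by 0.61 and 0.64 after centring, both called. The KO effect exceeded that of set 3 by 0.99 (SE 0.16, adjusted p = 7.2e-05).

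Slc36a3, a relative of unclear role in T cells, was at 2.15, 1.89 and 1.75 in KO and 1.11, 2.04 and 1.57 in WT libraries of set 3, the WT value of 1.11 being that library's lowest. It was at 4.99, 5.02 and 4.90 in KO and 4.58, 4.55 and 3.46 in WT libraries of set 5, and at 5.54, 5.58 and 5.63 against 4.85, 3.92 and 4.72 in set 6. KO libraries spread less than WT libraries and lay above the WT libraries of both sets, yet only the difference in set 6 was called (1.09, SE 0.37, adjusted p = 0.0187), and it was lost without WT replicate 2 (0.80, adjusted p = 0.101) and after centring (0.67, adjusted p = 0.166). Slc36a4 was higher in set 6 (0.54, SE 0.14, adjusted p = 0.00394), though by 0.13 after centring, and in set 5 was called only with the replicate number as a block (0.33, adjusted p = 0.0319).

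Of the Slc1 family, Slc1a5, a main glutamine exchanger of activated T cells, was higher in KO cells of sets 5 and 6 as deposited and not after centring. It was at 12.85, 12.94 and 12.80 in KO and 12.83, 12.81 and 12.60 in WT libraries of set 3. Set 5 had 12.27, 12.33 and 12.25 against 12.04, 12.10 and 12.08, and set 6 had 12.62, 12.49 and 12.70 against 12.22, 12.11 and 12.07. The differences of 0.21 (SE 0.07, adjusted p = 0.016) and 0.47 (SE 0.07, adjusted p = 3.54e-05) in sets 5 and 6 were called, but after centring Slc1a5 was lower in set 5 (-0.18, adjusted p = 0.0487) and not called in set 6 (0.06, adjusted p = 0.568). The deposited call in set 5 was lost without KO replicate 2 (adjusted p = 0.053) or WT replicate 1 (0.0523). Slc1a4, a carrier of alanine, serine and cysteine, was at 6.84 to 7.08 in KO and 7.47 to 7.70 in WT libraries of set 5, lower by -0.61 (SE 0.21, adjusted p = 0.0201). This was lost without KO replicate 1 (0.0674) or WT replicate 2 (0.0664), and it was -0.997 after centring (adjusted p = 0.000992). Slc1a1, a carrier of glutamate and cysteine, ranged from 2.23 to 3.46 in KO and 3.34 to 4.87 in WT libraries of set 5, and was called lower only after centring (-1.82, adjusted p = 0.027, and -1.69, adjusted p = 0.048, in set 6).

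The peptide carriers held the largest differences of both signs in sets 5 and 6. Slc15a3, a lysosomal carrier of histidine and small peptides, was at 8.70, 7.86 and 7.49 in KO and 5.17, 6.15 and 5.55 in WT libraries of set 3. In set 5 it was at 7.50, 7.53 and 7.88 against 4.37, 5.13 and 5.48, and in set 6 at 9.66, 9.06 and 9.69 against 6.51, 6.62 and 7.02. No KO library overlapped with a WT library of its set. Slc15a3 was higher by 2.39 (SE 0.33, adjusted p = 0.000298), 2.64 (SE 0.33, adjusted p = 5.4e-06) and 2.76 (SE 0.33, adjusted p = 4.43e-06), and by 2.42, 2.25 and 2.34 after centring; a difference of this effect between sets was not found (0.30, SE 0.41, adjusted p = 0.552).

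Slc15a3 is also known from macrophages, and macrophage markers were measured for comparison. The summed level of 4 of them (Lyz2, Adgre1, Cd68 and Itgam) was 7.14 to 7.63 in KO and 6.21 to 6.75 in WT libraries of set 3, 9.35 to 9.82 against 7.24 to 7.65 in set 5, and 10.27 to 10.498 against 8.43 to 9.35 in set 6. The sum was led by Cd68, and 1, 2 and 2 of the 4 were called higher in the 3 sets, against 6.92%, 50.1% and 53.9% of all genes. After centring the counts were also 1, 2 and 2, against 7.29%, 24.9% and 18.8%. Only these 4 of 11 listed markers were measured. Their part in the Slc15a3 values was not tested. The exons of Slc15a3 overlap Tmem132a on the opposite strand, and Tmem132a was called higher in set 6 (1.99, adjusted p = 0.000637) and not in sets 3 (-0.38, adjusted p = 0.575) and 5 (0.57, adjusted p = 0.248).

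Slc15a1, which takes up small peptides at the plasma membrane and is best known from the gut, was at 2.55, 3.03 and 3.35 in KO and 3.77, 2.71 and 3.73 in WT libraries of set 3. In set 5 it was at 1.83, 3.07 and 2.78 in KO and 5.85, 5.06 and 5.65 in WT libraries, and in set 6 at 2.02, 3.09 and 2.71 against 6.46, 5.81 and 5.75. KO libraries of sets 5 and 6 overlapped with or lay below those of set 3, while every WT library lay above every WT library of set 3. Slc15a1 was lower in KO cells by -2.96 (SE 0.43, adjusted p = 2.41e-05) and -3.40 (SE 0.43, adjusted p = 7.32e-06), and its KO effect differed from that of set 3 by -2.75 (SE 0.53, adjusted p = 0.000386).

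Slc15a2, the second peptide carrier of the plasma membrane, differed in set 3 instead. It was at 6.57, 4.92 and 5.82 in KO and 8.11, 8.99 and 8.82 in WT libraries of set 3. In set 5 the values of 8.37, 5.43 and 6.46 in KO and 6.67, 6.80 and 7.52 in WT libraries overlapped, as did 7.33, 5.65 and 7.09 with 6.79, 6.64 and 6.38 in set 6. KO replicate 1 was the highest KO library of each set and replicate 2 the lowest. Slc15a2 was lower in KO cells of set 3 by -2.87 (SE 0.60, adjusted p = 0.00584), the difference in sets 5 and 6 was -0.25 and 0.09 (adjusted p = 0.752 and 0.910), and the change of effect was 2.79 (SE 0.74, adjusted p = 0.00447). Slc15a4, the second lysosomal member, was higher in set 5 by 0.36 (SE 0.15, adjusted p = 0.05, under the threshold before rounding), but this call was lost without KO replicate 2 (0.17, adjusted p = 0.291) or any 1 WT replicate (0.107, 0.079 and 0.0986), in a fit with the replicate number as a block (0.0599), and when the groups of set 5 alone were fitted (0.0919), and on the centred scale (-0.03).

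In the Slc6 family, Slc6a8, the creatine carrier, was at 4.97, 5.31 and 4.53 in KO and 3.71, 3.50 and 3.28 in WT libraries of set 3. In set 5 it was at 6.02, 6.73 and 6.43 against 6.62, 6.49 and 6.08, which overlapped, and in set 6 at 5.73, 5.79 and 5.76 against 6.73, 6.54 and 6.28. The KO libraries were thus above the WT libraries in set 3 and below them in set 6. The differences were 1.44 (SE 0.25, adjusted p = 0.00165), 0.00 and -0.76 (SE 0.25, adjusted p = 0.0166). The last was lost without WT replicate 1 (adjusted p = 0.0677), and the first was lost when the groups of set 3 alone were fitted (0.0635). The change of effect was -1.82 (SE 0.31, adjusted p = 0.000122).

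Slc6a19, a carrier of neutral amino acids known from gut and kidney, was at 2.03, 3.23 and 2.83 in KO and 1.93, 2.65 and 3.74 in WT libraries of set 3. It was at 4.02, 4.72 and 4.84 in KO and 2.61, 2.91 and 2.62 in WT libraries of set 5, and at 5.07, 6.02 and 5.31 against 3.71, 3.31 and 3.39 in set 6. The KO libraries lay above the WT libraries in sets 5 and 6. The means differed by 1.81 (SE 0.45, adjusted p = 0.00271) and 1.998 (SE 0.45, adjusted p = 0.00135), and by 1.42 and 1.59 after centring. The call in set 5 was lost after quantile normalization (1.12, adjusted p = 0.0529). Slc6a9, a glycine carrier, was lower in KO cells of set 5 (-0.73, SE 0.25, adjusted p = 0.0197). This call was lost without KO replicate 2 (adjusted p = 0.0732) or WT replicate 3 (0.0801). Exons of Slc6a9 overlap the protein-coding genes B4galt2 and Ccdc24 on the opposite strand. Slc6a6, the taurine carrier, was lower in set 6 by -0.22 (SE 0.09, adjusted p = 0.0417), a call lost without KO replicate 1 (0.119) or 3 (0.176), without any 1 WT replicate (0.0698, 0.0855 and 0.0883) and when the groups of set 6 alone were fitted (0.0917), while after centring it was called in sets 5 (-0.36, adjusted p = 0.00241) and 6 (-0.63, adjusted p = 5.71e-05). Slc6a13, a carrier of gamma-aminobutyric acid and taurine, spread from 1.31 to 4.05 and was not called.

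The Slc43 family includes carriers of large neutral amino acids, Slc43a1 and Slc43a2, and the purine base carrier Slc43a3. Slc43a1 was at 6.86, 6.92 and 6.63 in KO and 6.34, 6.59 and 6.47 in WT libraries of set 3. In set 5 it was at 3.73, 3.45 and 2.49 in KO and 1.73, 1.78 and 1.03 in WT libraries, the last being that library's lowest value, and in set 6 at 5.26, 3.25 and 3.74 against 3.19, 2.72 and 3.95. The high values of set 3 were absent from sets 5 and 6 in both genotypes, and the KO libraries of set 5 lay above the WT libraries. The means of set 5 differed by 1.71 (SE 0.47, adjusted p = 0.00561), and by 1.12 after quantile normalization (adjusted p = 0.0794). Slc43a2 went the other way, lower in KO cells by -0.59 (SE 0.16, adjusted p = 0.00419) in set 5 and -0.46 (SE 0.16, adjusted p = 0.0199) in set 6. The latter was lost without KO replicate 1 (adjusted p = 0.0773) or 3 (0.0783) or WT replicate 3 (0.0869). Slc43a3 was called in no set.

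Transporters also differed between sets within a genotype. In WT cells 18 members were higher and 7 lower in set 5 than in set 3, where 29.3% and 38.3% of all genes were called, and 28 did not overlap, against 72.6%. In KO cells 16 were higher and 6 lower, against 49.8% and 23.4%, and 24 did not overlap, against 73.1%. The median difference was 0.50 for the members and -0.12 for all genes in WT cells, and 0.67 and 0.38 in KO cells. On the deposited scale 11 members were called higher and 5 lower in both genotypes, 9 in WT cells alone, 6 in KO cells alone, 3 in neither, and 0 with opposite signs. The shares of all genes with such joint calls were not counted on either scale. After centring 18 were higher and 7 lower in WT cells (30.5% and 36.8% of all genes) and 13 and 9 in KO cells (35.6% and 35.7%), and 2 had opposite calls, Slc7a5 (WT 0.44, KO -0.49) and Slc7a7 (WT 1.48, KO -0.99).

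Between sets 5 and 3, Slc43a1 was lower by -4.95 (SE 0.47, adjusted p = 1.42e-07) in WT and -3.58 (SE 0.47, adjusted p = 3.94e-06) in KO cells, the largest difference of a member in each genotype. Slc7a3 was higher by 3.54 (SE 0.24, adjusted p = 2.6e-09) and 2.05 (SE 0.24, adjusted p = 7.63e-07). With 1 of 3 WT libraries at its lowest value in set 5, the WT size for Slc43a1 rests partly on that value. Slc36a3 was higher by 2.62 and 3.04 and Slc6a8 by 2.90 and 1.46 in WT and KO cells, all called. The heavy chain Slc3a2 was higher by 0.80 and 1.18, and the glutamine carrier Slc38a2 by 1.04 and 1.79. Slc1a5 was lower by -0.67 and -0.58, the taurine carrier Slc6a6 by -1.19 and -1.11, Slc7a6 by -1.11 and -0.77 and Slc7a1 by -0.42 and -0.69, so that the glutamine carriers Slc1a5 and Slc38a2 differed in opposite directions in both genotypes.

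Several members were called in 1 genotype only. Slc15a1 was higher in set 5 than in set 3 by 2.11 (SE 0.43, adjusted p = 0.000419) in WT cells and differed by -0.42 (adjusted p = 0.398) in KO cells, and Slc7a7, at 1.45 (adjusted p = 0.000671) and -0.60 (adjusted p = 0.0937), and Slc7a11, at 1.89 (adjusted p = 6.06e-05) and 0.64 (adjusted p = 0.0765), had a like pattern. In KO cells alone, Slc38a7 was higher by 1.29 (adjusted p = 2.68e-06), Slc38a9 by 1.86 (adjusted p = 8.64e-07), Slc6a19 by 1.83 (adjusted p = 0.00179) and Slc7a8 by 1.56 (adjusted p = 0.027), where the WT differences were -0.18, 0.45, -0.06 and 0.39. Whether these differ between the genotypes is what the change of KO effect between sets, given above, addresses over sets 5 and 6 together: it was called for Slc15a1, Slc7a7, Slc7a11, Slc38a7, Slc38a9 and Slc6a19 and not for Slc7a8.

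**Figure D4:**
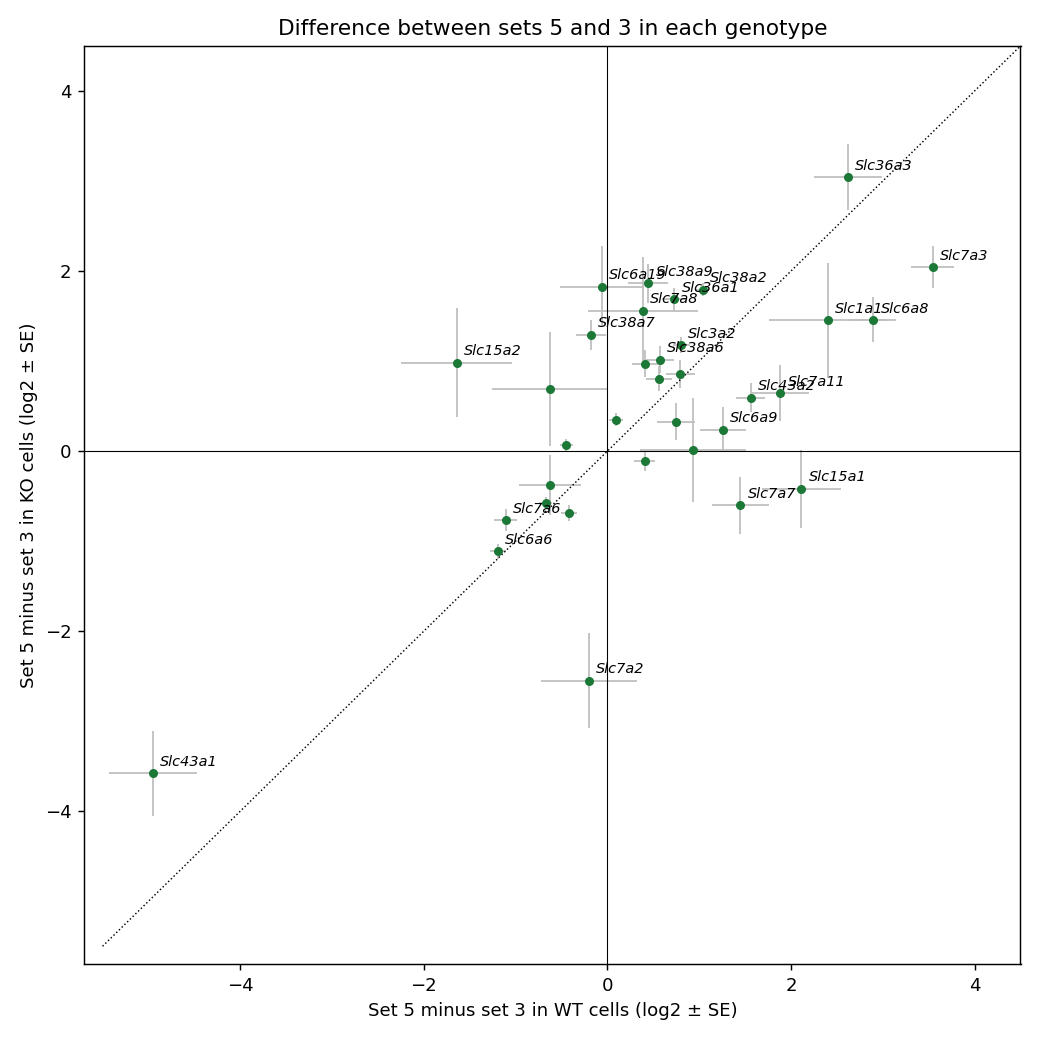
Each point is 1 of the 34 transporters, with its set 5 minus set 3 difference (log2 with SE) in WT cells on the horizontal and in KO cells on the vertical axis. The dotted line marks equal values. Slc43a1 lies far down and left at -4.95 and -3.58, Slc36a3 and Slc7a3 up and right, and Slc15a1 and Slc7a7 right of 0 and just below it.

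Sets 5 and 6 were closer. In WT cells 2 members, Slc15a3 (1.72, SE 0.33, adjusted p = 0.011) and Slc38a10 (0.46, SE 0.07, adjusted p = 0.00273), were higher in set 6, where 3.01% of all genes were, and 0 were lower, where 0.359% were (1 at an unadjusted p under 0.05). After centring these were also 2 and 0, against 1.49% and 0.566%. Values of the sets did not overlap for 14 members in WT cells, against 28.2% of all genes, and for 16 in KO cells, against 29.6%. In KO cells 7 were higher, against 9.93%, and 0 lower, against 2.03% (2 at an unadjusted p under 0.05). After centring 6 were higher and 1 lower, against 3.87% and 3.64%. The 7 were Slc15a3 (1.83), Slc7a7 (1.59), Slc6a9 (1.23), Slc43a3 (0.67), Slc38a10 (0.52), Slc7a5 (0.50) and Slc1a5 (0.32). Replicate numbers went together across these sets within a genotype, and with the number as a block the counts rose to 4 higher in WT cells and to 12 higher and 1 lower in KO cells, the last being Slc38a2 (-0.22, adjusted p = 0.0371). The share of all genes called with the block was not counted, so whether this rise is particular to the members is unknown.

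Genes that act beside these transporters were counted from 7 lists. The counts stand beside 6.92%, 50.1% and 53.9% of all genes called higher in sets 3, 5 and 6 and 4.46%, 8.08% and 4.59% called lower, and, after centring, 24.9% and 18.8% higher and 24.7% and 18.5% lower in sets 5 and 6. Of 41 measured genes of amino acid sensing and mTORC1, 2 were higher and 3 lower in KO cells of set 3, 24 and 1 in set 5, and 25 and 2 in set 6. After centring these were 12 and 10 in set 5 and 9 and 9 in set 6, and the list's median was 0.14 and -0.01 there. In set 5 Rragd and Flcn, a GTPase that recruits mTORC1 to lysosomes and a regulator of it, were higher by 2.01 (SE 0.15, adjusted p = 3.02e-08) and 1.56 (SE 0.13, adjusted p = 1.03e-07), and in set 6 Fnip1, the partner of Flcn, by 1.25 (SE 0.13, adjusted p = 8.68e-07), having been lower by -0.56 (adjusted p = 0.00909) in set 3. The leucine sensor Sesn1 was lower in sets 3 and 6 (-0.58 and -0.46), and its relative Sesn2 higher in set 3 (0.58, adjusted p = 0.0496).

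Of 11 measured transporters of other families and partners, 1, 9 and 7 were higher in sets 3, 5 and 6 and 0 lower (0, 1 and 0 at an unadjusted p under 0.05). After centring 5 were higher and 1 lower in set 5 and 1 and 1 in set 6. The lysosomal cystine exporter Ctns was higher by 1.27 (SE 0.19, adjusted p = 3.26e-05) and 0.89 (SE 0.19, adjusted p = 0.000875) in sets 5 and 6, and Laptm4a, a lysosomal membrane protein, by 0.90 and 0.76. After centring Ctns was called in set 5 (0.88, adjusted p = 0.00131) and not in set 6 (0.48, adjusted p = 0.0608). Nedd4, a ubiquitin ligase, was higher in set 3 (1.26, adjusted p = 0.00195).

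Of 14 genes of cystine and glutathione, 0 were called in set 3 by limma (1 higher and 1 lower at an unadjusted p under 0.05), 5 were higher and 6 lower in set 5, and 4 and 3 in set 6, and the list's median was -0.21 and -0.05 where that of all genes was 0.39 and 0.42. After centring 1 was higher and 8 lower in each of sets 5 and 6. Ggt1, which breaks down glutathione outside the cell, was lower by -3.10 (SE 0.41, adjusted p = 8.85e-06) and -3.70 (SE 0.41, adjusted p = 1.98e-06), and Chac1, which does so inside it, was higher by 1.42 (adjusted p = 0.000271) and 1.62 (adjusted p = 8.73e-05). Ahcy, of the methionine cycle, was lower by -0.94 and -0.60.

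Among 15 genes of glutamine, glutamate and aspartate use, 1 was higher in set 3, the asparagine synthetase Asns (1.34, SE 0.26, adjusted p = 0.00343), and 6 were higher and 2 lower in set 5 and 8 and 1 in set 6. After centring 0 were higher and 8 lower in set 5 and 1 and 4 in set 6. The aspartate aminotransferase Got1 was higher in set 6 by 0.58 (SE 0.10, adjusted p = 0.000188; 0.17 and not called after centring), and the purine synthesis enzyme Ppat was lower in sets 5 and 6 by -0.42 and -0.32. Of 14 genes of arginine and polyamine use, 1 was higher and 1 lower in set 3, 8 and 1 in set 5, and 9 and 0 in set 6 (10 and 0 at an unadjusted p under 0.05), with 3 and 4, and 4 and 3, after centring. The spermine oxidase Smox was higher in set 3 (1.73, SE 0.38, adjusted p = 0.00818), Ass1, which remakes arginine, in sets 5 and 6 (0.87 and 1.10), and the spermidine synthase Srm was lower in set 5 (-0.63, adjusted p = 0.00173). Of 14 genes of branched-chain amino acid breakdown, 0 were higher and 1 lower in set 3 (0 and 5 at an unadjusted p under 0.05). In set 5 they were 6 and 1, and in set 6 they were 7 and 1, with 1 and 3, and 0 and 4, after centring. The 1 lower in set 5 was Bcat1, the cytosolic aminotransferase (-0.72, adjusted p = 0.00792). Among the 6 higher there, Bckdhb differed by 0.98 (adjusted p = 0.000272), and by 0.59 after centring (adjusted p = 0.0148). Of 6 genes of taurine and creatine handling 1 was higher in each set and 0 lower (1, 0 and 0 at an unadjusted p under 0.05), Gamt in set 3 and Csad, of taurine synthesis, in sets 5 (0.98) and 6 (1.13).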

How the data were processed

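The submitters' processing notes name GRCm39, limma, edgeR and Salmon 1.9.0 and give no roles. The deposited table holds log2 values, equalized within groups; the sources used here do not give how. A second deposited table gives the authors' contrasts as log2 fold changes, a score (moderated t) and p-values with adjusted p-values, per the file headers.

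Here limma 3.58.1 (R 4.3.3) fitted 6 group means to all 18 libraries and 12547 genes, with 12 residual degrees of freedom, variances trended on level, and p-values adjusted over all genes (Benjamini-Hochberg); it was tested on simulated data. A filter on low values (at least 0 in 3 libraries) removed 0 genes. Centring subtracts each library's median. Members and gene lists were chosen with earlier results of these data known. Full values are given for members called with a log2 difference of 1 or more and no overlap in a set, and for Slc3a2, Slc7a5 and Slc1a5; lists name up to 3 called genes per direction. Some listed genes are not reported here; they stayed in the fit and were left out of list counts and marker sums. These sums are log2 of summed linear values.

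Same-numbered libraries of sets 5 and 6 deviated together in KO (r from 0.222 to 0.3409) and WT cells (0.1155 to 0.1556), a pairing found in the data and not in the labels. It was weaker with set 3. In WT cells r was 0.0694 to 0.0739 for sets 3 and 5, against -0.0494 to -0.0299 for other numbers. In KO cells it was 0.0253 to 0.154, against -0.1473 to 0.0613. The main fit left this pairing out. For same-numbered KO and WT libraries r was -0.0368 to 0.0288 in set 5, -0.0606 to 0.0072 in set 6 and -0.0813 to 0.1771 in set 3. In set 3, r was 0.1822 for KO replicate 2 with WT replicate 1. It was 0.1771 for replicate 3 of both genotypes and 0.1011 for KO replicate 1 with WT replicate 2. The other pairs of set 3 had r from -0.138 to -0.0192. A pairing of KO with WT libraries of set 3 was not fitted. Alternatives were other scalings, filters and null hypotheses, the compared groups alone, a replicate block and leaving out each library. Members were matched to RefSeq promoter windows and GENCODE M21 exons by name and identifier.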

Additional observations from a re-analysis of the deposited data

Results flagged for a closer look

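For 17 transporters the KO minus WT difference in sets 5 and 6 (their mean) differed from that in set 3 by limma's test of that difference with adjustment over all genes. On the log2 scale the difference of effects was higher for Slc15a2 (2.79), Slc6a19 (1.98), Slc38a7 (1.30), Slc38a9 (1.21), Slc36a1 (0.99), Slc38a2 (0.75), Slc38a1 (0.60), Slc3a2 (0.45), Slc38a10 (0.28) and Slc1a5 (0.23). It was lower for Slc15a1 (-2.75), Slc7a2 (-2.75), Slc6a8 (-1.82), Slc7a7 (-1.58), Slc7a3 (-1.15), Slc7a11 (-1.03) and Slc43a2 (-0.90). Relative to each library's median the calls on Slc1a5, Slc3a2, Slc38a1 and Slc38a10 were lost (adjusted p = 0.0779, 0.867, 0.146 and 0.215). The call on Slc1a5 was also lost without any 1 of 10 libraries (adjusted p from 0.0512 to 0.109): KO set 3 replicate 1 or 3, KO set 5 replicate 2, KO set 6 replicate 1 or 3, WT set 3 replicate 1 or 2, WT set 5 replicate 1, and WT set 6 replicate 2 or 3. Libraries of set 3 enter all 17 values.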

How the results depend on the processing

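Of 1097 values of single transporters under other settings, 959 kept their direction and side of the threshold, 117 kept only the direction and 21 changed sign. Among the 959, 62 came from the fit without the filter on low values. That fit repeats the main one because the filter removed 0 genes, so these 62 could not have moved. Shares of all genes called were counted for the main and centred fits only, so counts of members under the other settings have no background. Centring on library medians moved the members called higher and lower to 9 and 12 in set 5 (main 15 and 7), 6 and 9 in set 6 (13 and 5) and 6 and 12 for the change of KO effect (10 and 7); quantile normalization moved them to 7 and 11, 6 and 10, and 6 and 11, and gave 10 lower between KO sets 5 and 3 (6). A minimum fold of 1.2 with centring, chosen after seeing the data, left 5, 4 and 2 higher; without centring, it left 3 lower in set 5 and 2 in set 6. Among genes with a mean value of 6 or more, which keeps 22 members, 1 was higher in set 3 (4), 3 lower in set 6 and 2 lower for the change of effect. With the compared groups alone, 2 were higher in set 3; the change of effect uses all 6 groups and has no such fit. Leaving out 1 library gave 1 to 2 lower in set 3 (2 without KO replicate 2) and 3 to 6 lower in set 6 (3 on leaving out replicate 1 or 3 of either genotype).

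Between sets 6 and 5 of WT cells the 2 higher became 1 with the minimum fold, 0 with that and centring, 4 with the compared groups alone, 4 with the replicate block, and 1 to 2 without 1 library (1 without WT set 5 replicate 1 or WT set 6 replicate 3). In KO cells the 7 higher became 1, 0, 4 and 12, and the 0 lower became 1 with centring, quantile normalization or the replicate block. In the KO against WT comparisons and their change the replicate block ended 1 call, that of Slc15a4, and gave counts within 1.5 times of the main ones. Beside the calls given above for Slc7a1, Slc7a6 and Slc36a4, it added the change of effect of Slc7a5 (adjusted p = 0.0464) and Slc15a2 between KO sets 5 and 3 (0.0155).

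The sign changed in set 5 for Slc1a5 (-0.18 centred, -0.15 quantile), Slc15a4 (-0.0312, -0.027), Slc7a6 (-0.0448, -0.0554) and Slc38a10 (-0.044, -0.0492), in set 6 for Slc38a10 (-0.0067 centred), and in the change of effect for Slc1a5 (-0.20, -0.22), Slc38a10 (-0.14, -0.17) and Slc3a2 (-0.0208 quantile); the centred values also hold for the minimum fold with centring, and the cause was not tested. Depth is unknown, and values near 1 are the lowest a library holds, which limits Slc7a2, Slc1a1, Slc36a3 and Slc43a1.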
